A study of Mus musculus with 13 samples.

Results

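The comparison described here is that of primary mouse embryonic fibroblasts (MEFs) labelled Prkd3-/- with primary MEFs labelled wild type (WT). It covers 6 of the 13 libraries of the series, 3 of each genotype, chosen by their genotype and state labels, and all 55487 genes listed for both. The WT cultures carry the clone numbers 3, 4 and 5 and the Prkd3-/- cultures 13, 14 and 15, and the other 7 libraries are immortalized lines grown out of cultures with these numbers. Both genotypes were grown in high-glucose DMEM with 10% fetal calf serum and β-mercaptoethanol, and polyadenylated RNA was sequenced. Neither the strain, the age of the embryos, the passage number nor the design of the Prkd3 allele is given in the labels, and the article describes the WT cultures alone, as taken from separate embryos, so p-values measure the spread between these cultures only. The counts of the 2 genotypes were deposited as separate tables, so genotype and submission cannot be told apart in any value below.

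Prkd3 encodes protein kinase D3, a serine/threonine kinase of a family of 3 in the mouse with Prkd1 and Prkd2. These kinases bind diacylglycerol, are switched on by protein kinase C, and are known for controlling the budding of secretory carriers from the trans-Golgi network and the remodelling of actin. Primary MEFs are a mixed culture from the embryo body, made up mostly of fibroblasts that secrete collagens, elastin and proteoglycans, with macrophages and precursors of other lineages that survive the first passages.

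Total counts lay between 55436367 and 90654323 in the WT libraries and between 35273408 and 100441756 in the Prkd3-/- libraries. Over genes with enough counts to be tested, the WT libraries correlated with each other at 0.998 to 0.999 (Pearson, log2 of scaled counts) and varied by 1.99% to 3.21% beyond counting error. Prkd3-/- clones 13 and 15 correlated at 0.994, while clone 14 correlated with them at 0.966 and 0.974, no higher than with the WT libraries (0.974 to 0.976). Beyond counting error clones 13 and 15 varied by 7.94%, and clone 14 differed from them by 20.5% and 18.6% and from the WT libraries by 18.7% to 19.4%. Clone 14 stood apart from its own group, and several results that rest on it are given with and without it. Fibroblast markers were abundant in all 6 libraries, with a sum over 20 markers of 69370 to 71230 counts per 1e+06 counts (CPM, scaled by library size and TMM factor) in WT and of 66500, 42070 and 64320 CPM in clones 13, 14 and 15.

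**Figure D1:**
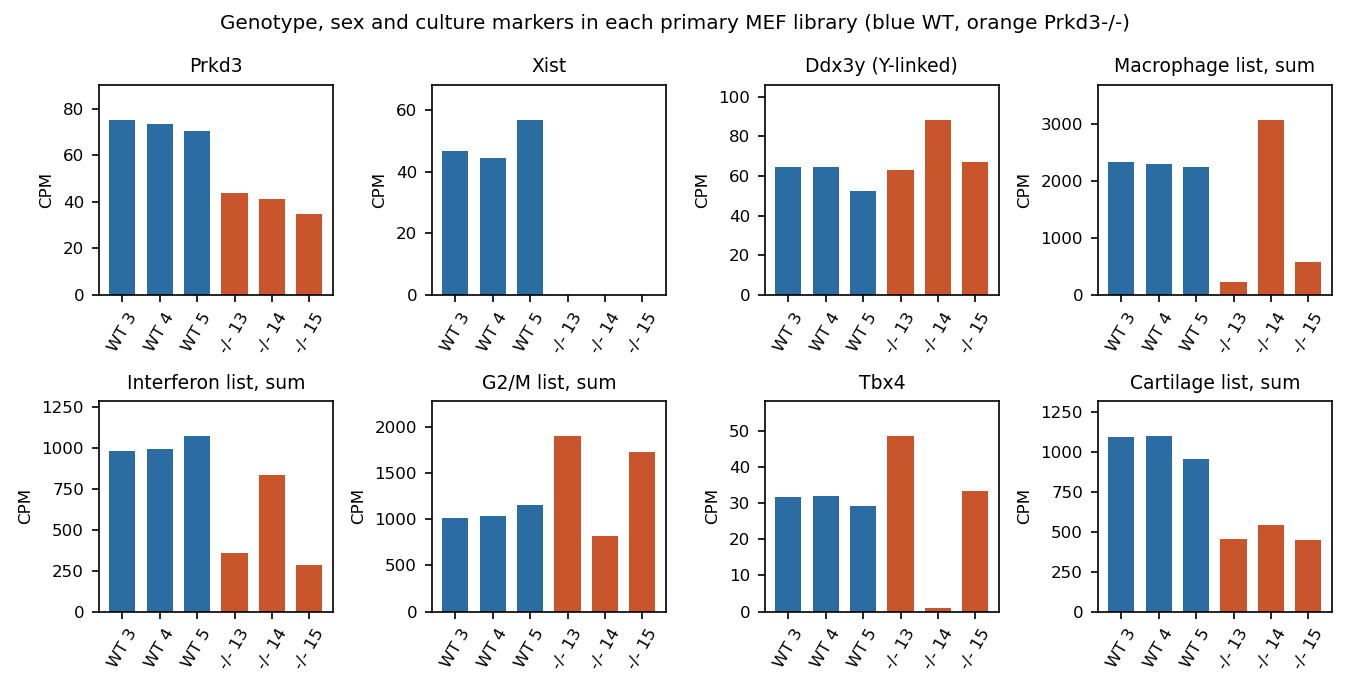
Bars give the CPM of single genes (Prkd3, Xist, Ddx3y, Tbx4) or the summed CPM of a marker list in each of the 6 primary libraries, with WT clones 3, 4 and 5 in blue and Prkd3-/- clones 13, 14 and 15 in orange. Prkd3 was lower in all 3 Prkd3-/- libraries, Xist was at or near 0 in them, and clone 14 differed from clones 13 and 15 in the macrophage, interferon and G2/M sums and in Tbx4.

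Prkd3 (ENSMUSG00000024070, chromosome 17 of GRCm38, from 78949405 to 79020816, minus strand) was at 75.2, 73.2 and 70.3 CPM in WT and at 43.9, 41.1 and 34.9 CPM in the Prkd3-/- libraries. The groups did not overlap, but transcript remained in every Prkd3-/- library. Its Log2FC, Prkd3-/- over WT, was −0.87 (standard error 0.10, adjusted p = 0.0102 in edgeR's quasi-likelihood test over all 20403 genes tested), short of the thresholds used below. The counts are sums over all exons of a gene, so they do not show whether a deleted exon was absent. Prkd1 was at 17.3, 17.4 and 19 CPM in WT and 23.1, 21.9 and 22.2 CPM in Prkd3-/- (Log2FC 0.33, edgeR adjusted p = 0.0652), without overlap. Prkd2 lay between 27.8 and 30.2 CPM in WT and between 20.5 and 35.1 CPM in Prkd3-/-, so that the groups overlapped.

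The libraries also differed in signs of sex and of culture composition. Xist, the RNA that coats the inactive X chromosome of female cells, was at 46.7, 44.5 and 56.9 CPM in WT and at 0.0587, 0 and 0 CPM in Prkd3-/-. Its antisense gene Tsix had no counts in Prkd3-/- and was at least 52.1-fold lower against the limit of 3 counts per library (counting error only). The Y-linked helicase gene Ddx3y was present in all 6, at 52.5 to 64.6 CPM in WT and 63.0 to 88.5 CPM in Prkd3-/-. Each WT library thus held both Xist and Y-linked RNA, and the Prkd3-/- libraries held Y-linked RNA nearly without Xist. Neither these values nor the labels show whether each WT library came from 1 embryo or from a pool of both sexes. The WT libraries were also nearly alike, and every p-value below rests in part on their small spread.

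Macrophage markers set clone 14 apart from clones 13 and 15. The sum over 25 macrophage markers was 2335, 2308 and 2258 CPM in WT and 237.3, 3086 and 582.2 CPM in clones 13, 14 and 15. Csf1r, the receptor that macrophages need to survive, was at 217, 212 and 214 CPM in WT and 36.1, 187 and 74.7 CPM in Prkd3-/-. Mpeg1, which encodes a pore-forming protein of phagocytes, was at 208, 208 and 190 CPM in WT and 8.24, 230 and 23 CPM in Prkd3-/-. None of the 25 markers passed the thresholds in the comparison of all 6 libraries, and 12 passed them as lower when clone 14 was left out. Over all genes, 109 of 20403 passed as lower with the 6 libraries and 1134 of 20428 without clone 14. In bulk RNA, fewer cells of a type and less RNA per cell cannot be told apart.

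Clone 14 also differed from the other libraries in transcription factors of limb and body position, in both directions. Of 36 tested Hox genes it was the lowest of the 6 libraries in 13 and the highest in 17, and of 16 limb-field genes the lowest in 9 and the highest in 4. Tbx4, which marks the hindlimb field, was at 31.7, 31.9 and 29.1 CPM in WT and at 48.5, 0.947 and 33.3 CPM in clones 13, 14 and 15. Hoxd13, a factor of the hand and foot plate, was at 69.6, 71.1 and 90.8 CPM in WT and 184, 7.35 and 135 CPM in Prkd3-/-. Clone 14 was the lowest library for Tbx4, Hoxd13, Hoxa13 (1.47 CPM) and Pitx1 (1.45 CPM), and clone 13 was the highest for the first 3. Tbx5, the forelimb counterpart of Tbx4, was lowest in clone 14 as well (5.58 CPM, against 13 to 16.7 CPM in WT). Clone 14 was the highest library for Meis1 (40.2 CPM, against 16.0 to 20.4 CPM in WT) and Meis2 (72.5 CPM), which mark the proximal limb, and for anterior Hox genes such as Hoxb4 (18.8 CPM) and Hoxa5 (39.3 CPM). Of the 36 Hox genes none passed the thresholds over all 6 libraries, and 14 passed as lower and 2 as higher without clone 14. Of all 20428 genes tested in the fit without clone 14, 1134 passed as lower and 322 as higher.

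Cell-cycle genes divided the libraries in the same way. The sum over 24 genes of the G2/M phase was 1016, 1031 and 1156 CPM in WT, 1898 and 1726 CPM in clones 13 and 15 and 812.7 CPM in clone 14. All 24 had a positive Log2FC (median 0.50) but none passed the thresholds. Without clone 14 the median was 0.752 and 2 passed as higher, against 322 of all 20428 genes tested in that fit. Mki67, the proliferation marker, was at 298 and 254 CPM in clones 13 and 15 and at 69.5 CPM in clone 14. Markers of 3 other lineages were sparse: endothelial ones summed to 22.5 to 45.4 CPM, epithelial ones to 15.6 to 72.9 CPM and erythroid ones to at most 0.436 CPM. No member of these 3 lists passed the thresholds, though 1 endothelial and 1 epithelial gene passed as higher without clone 14. Mural and smooth-muscle markers were not sparse. Their sum was 5424, 5296 and 5403 CPM in WT and 5309, 9736 and 6301 CPM in clones 13, 14 and 15. The part that composition and sex take in the differences below was not tested beyond the values given beside them.

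Of the 20403 genes tested, 47 were higher (0.230%) and 109 lower (0.534%) in Prkd3-/- primary MEFs by edgeR, with a |Log2FC| no smaller than 1 and an adjusted p-value under 0.01; these genes are called higher or lower in what follows. At an adjusted p-value under 0.05 and no limit on size, 522 genes were higher (2.56%) and 711 lower (3.48%). In 3438 genes (16.9%) every Prkd3-/- library lay above every WT library and in 3616 (17.7%) every one lay below. The median Log2FC over all tested genes was 0.0104. With a macrophage score as a covariate 155 of the 156 called genes remained called, among 338 higher and 821 lower. The macrophage sums were nearly level in WT. Among the Prkd3-/- clones these sums were 3086 CPM in clone 14 and 237.3 and 582.2 CPM in the others. Within the groups the score thus mostly set clone 14 apart, so this fit cannot show whether the called genes depend on macrophages. Without clone 14, 154 of the 156 remained called, among 322 higher and 1134 lower. Leaving out WT clone 3 or WT clone 4 left 0 higher and 2 lower genes, and leaving out WT clone 5 left 6 and 21. Leaving out Prkd3-/- clone 15 left 20 and 55, so the number of calls rests on single libraries. No called gene turned direction in any of these fits. The groups did not overlap in any of the 156, so leaving out a library could hardly turn them.

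**Figure D2:**
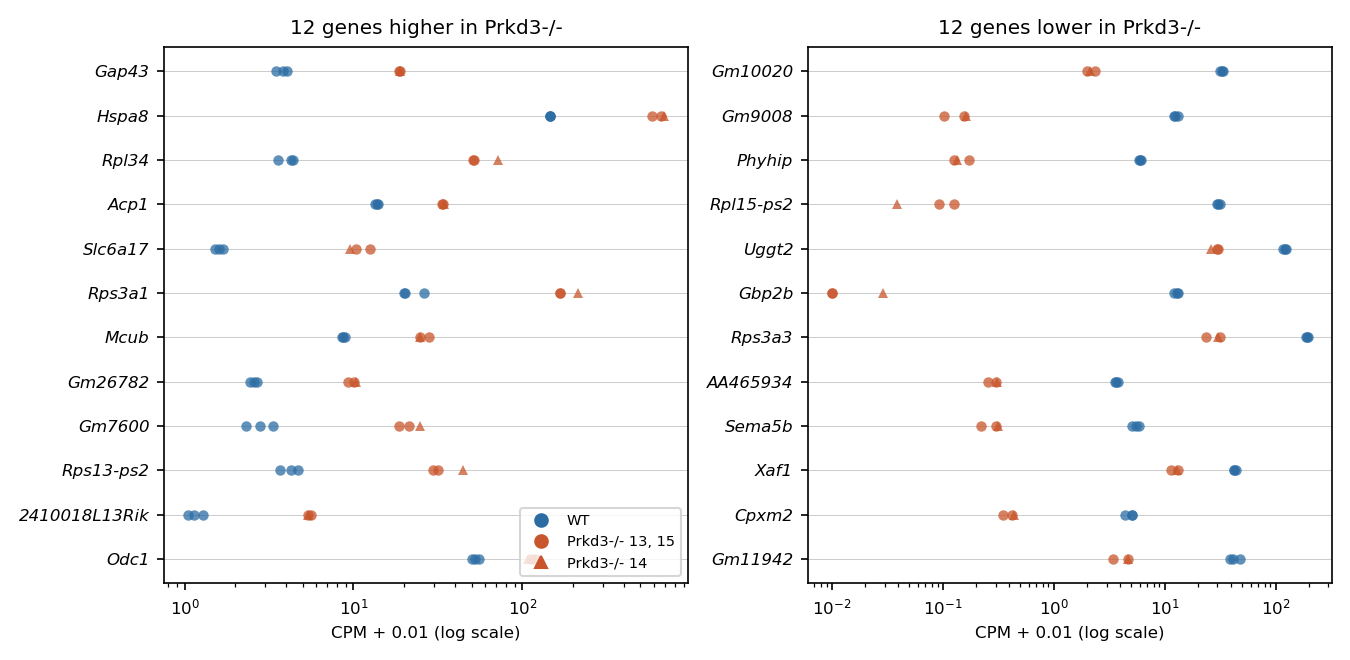
Each row is a gene and each point the CPM (plus 0.01, log axis) of 1 primary library, for the 12 called genes of smallest p-value in each direction that had at least 1 CPM in the higher group. Blue points are WT and orange points Prkd3-/-, with clone 14 as a triangle, and in every row all orange points lie on the same side of all blue points, which the choice of genes required.

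Among the called genes the largest falls in CPM were those of Ogn and Eln, both genes of the extracellular matrix. Elastin, Eln (chromosome 5, 134702593 to 134747323), the core protein of elastic fibres, was at 297, 311 and 371 CPM in WT and 19.8, 13.5 and 8.34 CPM in Prkd3-/- (Log2FC −4.54, standard error 0.34, edgeR adjusted p = 0.00267). The highest Prkd3-/- library was far below the lowest WT library, and leaving out clone 14 gave a Log2FC of −4.49. Col8a2, a short-chain collagen of basement membranes, was at 89.2, 89.2 and 80.8 CPM against 16.9, 14.8 and 9.77 CPM (Log2FC −2.64, edgeR adjusted p = 0.00262). Ogn, or osteoglycin, a small leucine-rich proteoglycan, was at 748, 751 and 667 CPM against 206, 180 and 125 CPM (Log2FC −2.08, edgeR adjusted p = 0.00485). In all 3 genes the groups were separated by more than the spread within either group.

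The matrix lists as a whole moved less than these genes. Of 43 tested collagen genes 1 was called lower, and 6 were lower and 1 higher at an adjusted p-value under 0.05. Over all genes tested 0.534% were called lower, and at the 0.05 level 3.48% were lower and 2.56% higher. In 26 of the 43 collagen genes every Prkd3-/- library lay below every WT library, against 17.7% of all genes tested. The median Log2FC was −0.679. Col3a1, a main fibrillar collagen, was at 7198, 7661 and 7347 CPM in WT and 4015, 3257 and 1889 CPM in Prkd3-/- (Log2FC −1.28, edgeR adjusted p = 0.0506). Col1a1, the most abundant collagen gene, was at 17369, 17248 and 16900 CPM against 16082, 9946 and 12706 CPM (Log2FC −0.41, edgeR adjusted p = 0.277). Of 35 matrix glycoproteins and proteoglycans 2 were called lower, 8 were lower and 1 higher at an adjusted p-value under 0.05, and the median Log2FC was −0.895. Other elastic-fibre and leucine-rich members that were lower at that level were Mfap5 (Log2FC −1.55), Efemp1 (−0.91), Prelp (−3.25) and Omd (−2.59). Fbln2, which binds elastin and fibronectin, was the 1 member that was higher at that level. It rose from 2176, 2174 and 2026 CPM to 3880, 3691 and 4593 CPM (Log2FC 0.93, edgeR adjusted p = 0.0160). In all, 8 of the 35 had a positive Log2FC. Without clone 14, 9 collagens and 13 of the 35 were called lower, and 1 of each list higher. Over all 20428 genes tested in that fit, 1134 were called lower and 322 higher.

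Further matrix genes outside these lists were called lower and are named here after their values were seen. Lama3, a chain of laminin-332 of epithelial basement membranes, was at 9.0, 9.12 and 7.92 CPM in WT and 0.399, 0.641 and 0.613 CPM in Prkd3-/- (Log2FC −3.98, edgeR adjusted p = 0.000894). Fndc1, a fibronectin type III domain protein, was at 44.8, 44.7 and 40.4 CPM against 7.72, 6.90 and 5.46 CPM (Log2FC −2.69, edgeR adjusted p = 0.000883). Frem1 (Log2FC −2.52) and Fras1 (−1.33), partners in one basement-membrane complex, were both called lower, as was Reck (−1.42), a membrane-anchored inhibitor of matrix metalloproteases. Among the 23 listed proteases and inhibitors none was called, 4 were lower and 2 higher at an adjusted p-value under 0.05. Over all genes tested, 3.48% were lower and 2.56% higher at that level.

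Cartilage markers were lower in every Prkd3-/- library. The sum over 15 markers was 1098, 1101 and 958 CPM in WT and 457.9, 542.1 and 451.8 CPM in Prkd3-/-, and in 9 of the 13 tested genes the groups did not overlap and Prkd3-/- was lower (median Log2FC −1.22). Over all genes tested 17.7% lay lower without overlap. None of the 13 was called, and 2 were lower at an adjusted p-value under 0.05, against 3.48% of all genes tested. Col11a1, a fibrillar collagen of cartilage, was at 795, 807 and 724 CPM against 311, 415 and 271 CPM (Log2FC −1.22, edgeR adjusted p = 0.0163), and made up most of the sum. Sox9, the master factor of chondrocytes, was at 23.3 to 26.6 CPM in WT and 15.7 to 37.9 CPM in Prkd3-/-, and the groups overlapped.

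Genes of the insulin-like growth factor (IGF) axis and of bone morphogenetic protein (BMP) signalling were among the called genes. Igfbp6, an IGF-binding protein with preference for IGF2, was at 57.3, 53.4 and 57.4 CPM in WT and 22.1, 23.8 and 22.0 CPM in Prkd3-/- (Log2FC −1.31, standard error 0.07, edgeR adjusted p = 0.000894). Igfbp2, another binding protein, was at 150, 152 and 149 CPM against 40.0, 63.1 and 44.5 CPM (Log2FC −1.61, edgeR adjusted p = 0.00891). Of 16 genes of the axis these 2 were called and 4 were lower at an adjusted p-value under 0.05, the others being Igfbp5 and Igf2. Over all genes tested 0.534% were called lower and 3.48% were lower at the 0.05 level. Igf2 itself, the growth factor expressed from the paternal allele, was at 3694, 3454 and 2815 CPM in WT and 1196, 894 and 678 CPM in Prkd3-/- (Log2FC −1.85, edgeR adjusted p = 0.0134), with no overlap. The list's median Log2FC was −0.23, and Igf1r, the receptor, had a Log2FC of −0.13 (edgeR adjusted p = 0.788).

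Among the 33 tested genes of the transforming growth factor β and BMP pathways 2 were called lower, both of them ligands. At an adjusted p-value under 0.05, 4 of the 33 were lower and 2 higher, and the median Log2FC was −0.234. Over all genes tested 0.534% were called lower, and at the 0.05 level 3.48% were lower and 2.56% higher. Bmp4 was at 96.2, 91.1 and 88.3 CPM in WT and 46.4, 32.3 and 37.4 CPM in Prkd3-/- (Log2FC −1.25, edgeR adjusted p = 0.00948). Bmp5 was at 6.32, 6.55 and 4.94 CPM against 1.02, 1.27 and 1.08 CPM (Log2FC −2.40, edgeR adjusted p = 0.00223), and 46.7% of its exon bases are shared with another annotated gene, so its counts are less certain. The Log2FC was −0.94 for the receptor Tgfbr2 (edgeR adjusted p = 0.0123) and 1.05 for the decoy receptor Bambi (edgeR adjusted p = 0.0135). Pdgfrb, the platelet-derived growth factor receptor of fibroblasts and mural cells, was at 474, 471 and 452 CPM against 218, 224 and 183 CPM (Log2FC −1.16, edgeR adjusted p = 0.00399). It was the single called gene both of the 20 fibroblast markers (median Log2FC −0.469) and of the 13 mural and smooth-muscle markers (median −0.33). Without clone 14, 2 of these fibroblast markers and 6 of these mural and smooth-muscle markers were called lower. In that fit 1134 of all 20428 genes tested were called lower. L1cam, an X-linked neural adhesion molecule, was at 21.7, 19.4 and 25.6 CPM in WT and 5.19, 5.31 and 4.67 CPM in Prkd3-/- (Log2FC −2.13, edgeR adjusted p = 0.00117), and Cpxm2, a secreted carboxypeptidase-like protein, at 5.12, 5.06 and 4.43 CPM against 0.340, 0.430 and 0.408 CPM (Log2FC −3.63). In the Wnt list of 35 tested genes none was called, 3 were lower and 1 higher at an adjusted p-value under 0.05, and the median was −0.53.

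**Figure D3:**
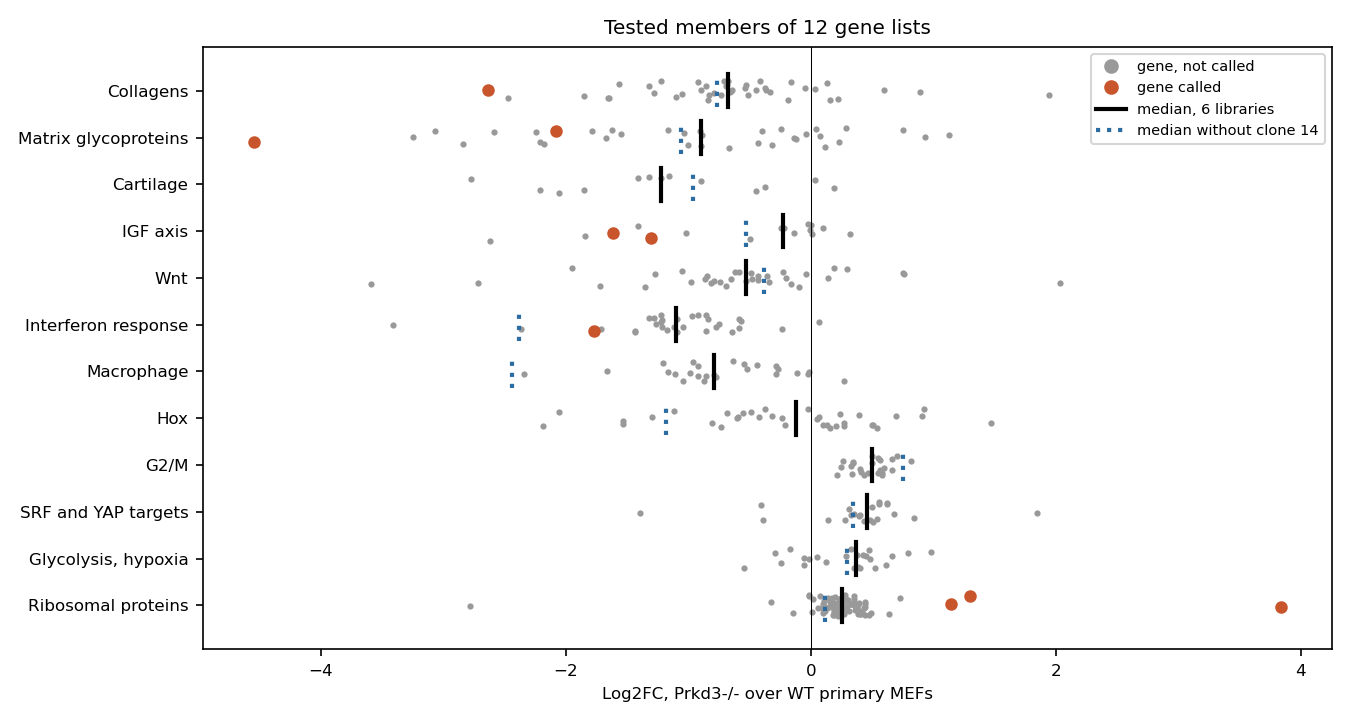
Each point is the Log2FC, Prkd3-/- over WT primary MEFs, of 1 tested gene in 12 gene lists, with called genes in orange. Black bars mark the list's median over the 6 libraries and dotted blue bars the median without clone 14; the medians of the interferon, macrophage and Hox lists moved from −1.10, −0.789 and −0.121 to −2.38, −2.44 and −1.18, and those of the matrix lists moved from −0.679 and −0.895 to −0.768 and −1.06.

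Interferon-response genes were lower in clones 13 and 15, and clone 14 lay above both of these clones in 29 of the 31 genes listed. The promoters of this list can be read beside the counts, since such genes are bound by interferon-activated factors at a motif of paired GAAA units. The unit GAAA followed after any 2 bases by GAAA was searched on both strands from 250 bases before to 50 bases after the start of each gene (RefSeq, GRCm38.p6) and was found in 13 of the 22 listed genes with a promoter sequence (59.1%) and in 458 of the 12222 tested genes with one (3.75%). A match is a description of these letters and was not tested as a binding site. The stretches of 3 genes with overlapping or repeated matches are shown, because these genes are described next; capitals mark the matches and each sequence is written in the direction of transcription.
Isg15 (chr4:156200845-156200926, minus strand, 108 to 27 bases before the start): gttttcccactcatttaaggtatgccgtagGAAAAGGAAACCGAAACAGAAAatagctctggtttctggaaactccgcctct
Ifit1 (chr19:34640755-34640843, plus strand, 134 to 46 bases before the start): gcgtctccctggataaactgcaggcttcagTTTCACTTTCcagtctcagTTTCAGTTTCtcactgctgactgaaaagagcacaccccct
Bst2 (chr8:71537557-71537632, minus strand, 160 to 85 bases before the start): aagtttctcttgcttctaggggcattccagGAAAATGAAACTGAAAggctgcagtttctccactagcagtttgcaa

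Isg15, a ubiquitin-like protein induced by interferon, was at 47.6, 47.4 and 54.4 CPM in WT and 8.53, 54.0 and 5.69 CPM in clones 13, 14 and 15. Ifit1, which binds foreign RNA ends, was at 57.7, 61.8 and 70.3 CPM in WT and 9.55, 41.6 and 6.10 CPM in Prkd3-/-. Bst2, or tetherin, which holds budding virus at the membrane, was at 64.8, 67.7 and 72.3 CPM in WT and 14.2, 63.3 and 10.3 CPM in Prkd3-/-. In each of these genes clones 13 and 15 were below every WT library, and clone 14 lay within the WT range for Isg15, just below it for Bst2 and further below it for Ifit1. None was called over the 6 libraries, with edgeR adjusted p-values of 0.459, 0.207 and 0.332.

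The sum over the 31 interferon genes was 978.5, 993.8 and 1072 CPM in WT and 358.4, 836.7 and 283.5 CPM in Prkd3-/-. In 19 of the 31 every Prkd3-/- library lay below every WT library, against 17.7% of all genes tested, and the list's median Log2FC was −1.10. Xaf1, an interferon-induced gene linked to apoptosis, was the only one called, at 42.2, 42.0 and 44.3 CPM in WT and 11.4, 12.9 and 13.2 CPM in Prkd3-/- (Log2FC −1.77, standard error 0.09, edgeR adjusted p = 0.000709). Its 300-base promoter window held no match to the motif, and clone 14 did not stand apart from clones 13 and 15 for this gene. Without clone 14, 28 of the 31 were called lower, against 1134 of all 20428 genes tested in that fit. The list's median in that fit was −2.38. The order of the 3 Prkd3-/- clones in this sum was not the same as in the macrophage sum, in which clone 14 was above WT and clone 15 above clone 13, and the part of macrophages in it was not tested.

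A guanylate-binding protein gene of the same response, Gbp2b (chromosome 3, 142594847 to 142619179), was all but absent from Prkd3-/-. It was at 13.2, 13 and 12.2 CPM in WT and at 0, 0.0191 and 0 CPM in Prkd3-/-, with 2 reads in all, a WT to Prkd3-/- ratio of 1440 (95% interval 398 to 11900, counting error only). Its neighbour and near copy Gbp2 was at 15.5 to 16.7 CPM in WT and 9.34 to 27.4 CPM in Prkd3-/-, and those groups overlapped. Of the 13 genes of class I antigen presentation none was called, and 7 lay lower without overlap, against 17.7% of all genes tested. H2-Q4 alone was lower at an adjusted p-value under 0.05 (Log2FC −0.91, edgeR adjusted p = 0.00891), against 3.48% of all genes tested.

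The genes called higher were fewer, and a neuronal growth-cone gene was the first of them by p-value. Gap43, a growth-cone protein that is a substrate of protein kinase C, was at 4.04, 3.80 and 3.45 CPM in WT and 19, 18.9 and 18.6 CPM in Prkd3-/- (Log2FC 2.32, standard error 0.10, edgeR adjusted p = 0.000593). Slc6a17, a neutral amino acid transporter of synaptic vesicles, was at 1.60, 1.51 and 1.69 CPM against 10.3, 9.58 and 12.5 CPM (Log2FC 2.75, edgeR adjusted p = 0.000883). Hspa8, the constitutive cytosolic Hsp70 chaperone, was at 145, 146 and 145 CPM against 590, 693 and 660 CPM (Log2FC 2.16, edgeR adjusted p = 0.000593), although the inducible Hspa1a had a Log2FC of −0.05 and Hspa1b one of 0.21. Hspa8 has processed copies in the genome, so its level depends on how reads were assigned among them.

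Acp1, Mcub and Odc1 rose by smaller folds, with little spread within either group. Acp1, a low-molecular-weight tyrosine phosphatase, was at 13.8, 13.9 and 13.4 CPM in WT and 33.9, 34.3 and 33.5 CPM in Prkd3-/- (Log2FC 1.30, edgeR adjusted p = 0.000868). Mcub, a dominant-negative subunit of the mitochondrial calcium uniporter, was at 8.69, 8.91 and 8.50 CPM against 24.7, 24.6 and 27.9 CPM (Log2FC 1.56). Odc1, the rate-limiting enzyme of polyamine synthesis, was at 50.5, 52.1 and 55.0 CPM against 112, 108 and 118 CPM (Log2FC 1.10). For these 3 genes clone 14 did not stand apart from clones 13 and 15.

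Immediate-early genes, which respond to serum and to handling within minutes, were for the most part not called. Ier3 was the only one of 13 handling-stress and immediate-early genes to be called, at 21.9, 23.1 and 25.8 CPM in WT and 45.4, 47.3 and 58.6 CPM in Prkd3-/- (Log2FC 1.09, edgeR adjusted p = 0.00999), and the list's median was 0.212. Fos, by contrast, lay between 55.8 and 123 CPM in WT and between 23.1 and 101 CPM in Prkd3-/-, and was not called. The 4 called genes given next belong to no list and are named after their values were seen. Errfi1, an inhibitor of the epidermal growth factor receptor, was at 53.7, 54.0 and 48.3 CPM against 126, 203 and 168 CPM (Log2FC 1.67), and Dusp5, a phosphatase that acts on ERK, had a Log2FC of 1.86. Has2, the main hyaluronan synthase of fibroblasts, was at 13.5, 13.7 and 12.3 CPM against 33.7, 54.2 and 57.2 CPM (Log2FC 1.88). Pdpn, the membrane glycoprotein podoplanin, was at 17.8, 16.8 and 18.5 CPM against 89.7, 124 and 79.4 CPM (Log2FC 2.46, edgeR adjusted p = 0.00184).

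No gene was called in the lists that follow, though several of them lay mostly on the higher side. Over all genes tested, 16.9% lay higher and 17.7% lower without overlap of the groups. At an adjusted p-value under 0.05, 2.56% of all genes tested were higher and 3.48% lower. In the list of 22 targets of the actin-regulated factors SRF and YAP 13 lay higher and 3 lower without overlap of the groups, 19 had a positive Log2FC, 3 were higher and 1 lower at an adjusted p-value under 0.05, and the median was 0.459. One of the 3, the tropomyosin gene Tpm1, rose from 1473, 1537 and 1443 CPM to 2218, 2520 and 2399 CPM (Log2FC 0.68, edgeR adjusted p = 0.0210). The 1 that was lower was Nt5e, the surface nucleotidase CD73 (Log2FC −1.40). Of 24 glycolysis and hypoxia genes 3 were higher at that level, and 12 lay higher and 1 lower without overlap (median 0.366). Of 76 genes of oxidative phosphorylation 70 had a positive Log2FC, 26 lay higher and 0 lower without overlap, and 2 were higher at an adjusted p-value under 0.05, with a median of 0.151. Of 24 listed substrates of protein kinase D and carriers at the trans-Golgi network none was called and 1 was lower at that level, Marcks, an actin-binding substrate of protein kinase C (Log2FC −0.82, edgeR adjusted p = 0.0456), and the median was −0.017. None of the 8 tested protein kinase C genes was called or passed an adjusted p-value of 0.05. Of 24 genes of cholesterol synthesis and 24 targets of p53, 8 in each list lay higher and 1 lower without overlap, with medians of 0.097 and 0.223.

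Some called genes were near-identical copies of other genes. Of the 156 called genes 107 were protein-coding and 24 (15.4%) were annotated pseudogenes, against 2196 (10.8%) of all genes tested. Rps3a1, which encodes a protein of the small ribosomal subunit, was at 20.2, 19.9 and 26.1 CPM in WT and 166, 215 and 167 CPM in Prkd3-/- (Log2FC 3.05, edgeR adjusted p = 0.000894). Its processed copy Rps3a3 on chromosome 13 went the other way, from 197, 192 and 189 CPM to 31.7, 30.5 and 23.8 CPM (Log2FC −2.74, edgeR adjusted p = 0.000702). The sum of Rps3a1, Rps3a2 and Rps3a3 was 280, 277 and 280 CPM in WT and 268, 334 and 255 CPM in Prkd3-/-. This sum overlapped between the groups while its division among copies did not.

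The pseudogenes Rps13-ps1 and Rps13-ps2 gave the same picture. Rps13-ps1 fell from 33.2 to 33.6 CPM in WT to 1.08 to 2.01 CPM in Prkd3-/-, Rps13-ps2 rose from 3.67 to 4.71 CPM to 29.4 to 44.3 CPM, and the sum with Rps13 was 39.1 to 40.5 CPM against 32.8 to 48.8 CPM. Other families changed in the sum of the copies that carry the family's name. Copies annotated under other names were not summed. Rpl34 was at 4.24, 3.59 and 4.38 CPM in WT and 51.6, 71.8 and 50.7 CPM in Prkd3-/- (Log2FC 3.84, edgeR adjusted p = 0.000702). With the 2 pseudogenes of its name the sum rose from 85.4 to 89.4 CPM to 115 to 153 CPM. Rpl15-ps2 was at 29.8, 30.2 and 31.8 CPM in WT and 0.0821, 0.0287 and 0.117 CPM in Prkd3-/- (Log2FC −8.85, edgeR adjusted p = 0.000505), and the sum of the Rpl15 copies was 82.8 to 87.0 CPM against 38.9 to 46.8 CPM. The gene of smallest p-value in the whole comparison was a processed pseudogene as well, Gm10020 on chromosome 15, at 31.7, 33.5 and 33.2 CPM in WT and 2.36, 2.12 and 1.98 CPM in Prkd3-/- (Log2FC −3.92, standard error 0.10, edgeR adjusted p = 0.000194). The histone copy Hist1h2al was at 3.99 to 4.12 CPM in WT and had 2 reads in all in Prkd3-/-, a WT to Prkd3-/- ratio of 453 (95% interval 125 to 3750, counting error only). Ftl2-ps, a copy of the ferritin light chain gene, was at 198, 183 and 156 CPM against 0.235, 0.727 and 0.584 CPM. Ftl1-ps2 was lower as well, while Ftl1-ps1 was higher and Ftl1 rose from 684, 658 and 755 CPM to 1050, 1690 and 1240 CPM. The sum of these Ftl copies was 1060, 1010 and 1090 CPM in WT and 1310, 2110 and 1520 CPM in Prkd3-/-. All such values depend on how reads that match several copies were placed, and of the 81 tested genes of ribosomal proteins, with a median Log2FC of 0.257, 3 were called: Rpl34, Rpl3 (1.14) and Rpl29 (1.30). Over all genes tested 0.230% were called higher. Rpl3 summed with the pseudogenes of its name was at 392, 391 and 393 CPM in WT and 437, 482 and 419 CPM in Prkd3-/-.

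**Figure D4:**
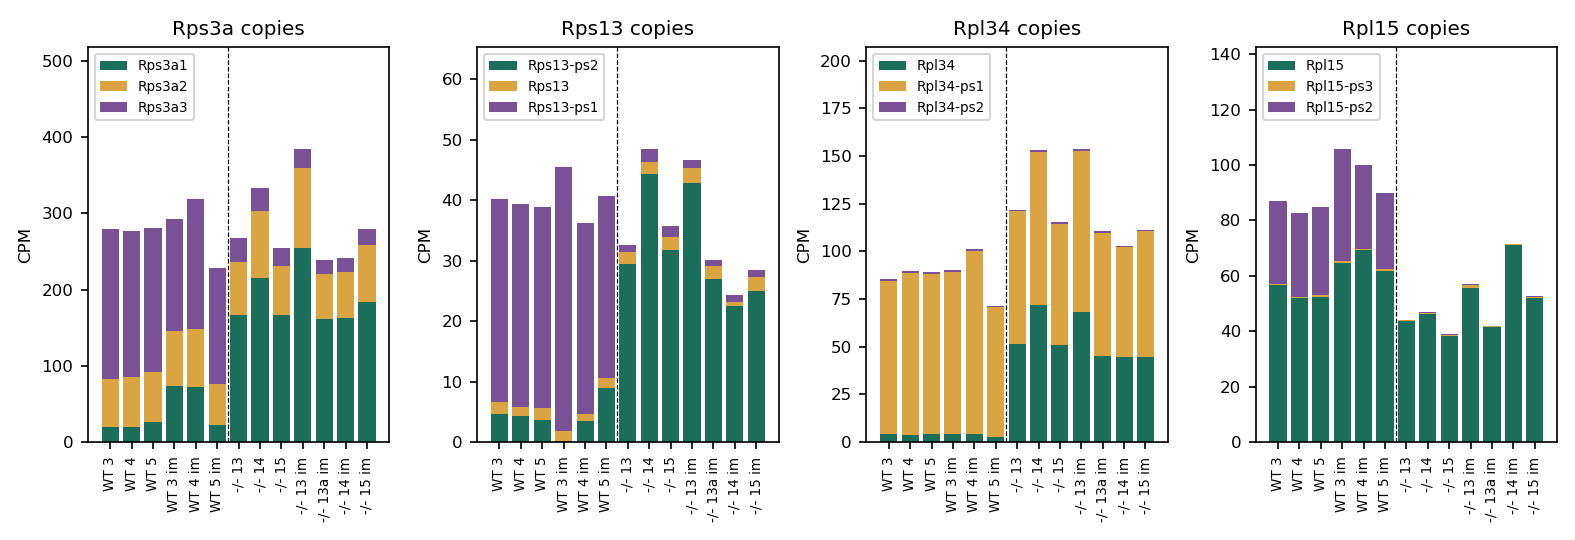
Stacked bars give the CPM, in all 13 libraries, of the copies that carry the name of each of 4 ribosomal protein genes. WT is to the left of the dashed line and Prkd3-/- to the right, with immortalized lines marked "im". In the Rps3a and Rps13 families the sum of these copies overlapped between the genotypes of the primary MEFs, while different copies held the counts. For Rps3a it was 280, 277 and 280 CPM in WT against 268, 334 and 255 CPM. In the Rpl34 and Rpl15 families the sum of these copies differed.

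The immortalized lines come from cultures with the same clone numbers and were not used in the comparison of the primary MEFs, though they share their genotype and submission. Among them 8 of 19683 tested genes were called (0.0406%), 1 higher and 7 lower, and all 8 were among the 156. Of the 156 genes called in primary MEFs 142 could be tested in the lines, 121 had the same sign and 78 the same sign at an unadjusted p-value under 0.05, with 0 of the opposite sign at that level. Over all genes with both tests, 12624 of 19180 had the same sign. In 80 of the 156 (51.3%) the 4 Prkd3-/- lines lay on the same side of the 3 WT lines as in the primary MEFs, and in 0 on the opposite side. Over all 7040 genes whose groups did not overlap in the primary MEFs and that could be compared, 757 did so (10.8%), and 43 lay on the opposite side. The called genes were chosen for large differences in the primary MEFs, lines 13 and 13a share an origin and the lines come from the same cultures, so these shares are descriptions with no test.

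This share differed by type of gene. Of the 24 called pseudogenes 22 (91.7%) were separated in the lines in the same direction, and of the 107 called protein-coding genes 39 were (36.4%). Among genes separated in the primary MEFs but not called, 16.7% of 611 pseudogenes and 9.02% of 5343 protein-coding genes were. Uggt2, a glucosyltransferase of endoplasmic reticulum quality control, was at 121, 125 and 117 CPM in WT and 30.0, 26.4 and 30.6 CPM in Prkd3-/- primary MEFs (Log2FC −2.06, edgeR adjusted p = 0.000593), and had a Log2FC of −2.06 in the lines too (unadjusted p = 5.84e-05 in edgeR). Phyhip was at 5.98, 6.09 and 5.83 CPM against 0.164, 0.124 and 0.117 CPM (Log2FC −5.42), and at −5.64 in the lines. Hspa8, Acp1, Rpl34 and Gbp2b were also separated in all 13 libraries.

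The matrix genes were divided in the lines. Of the 6 collagen genes lower in primary MEFs at an adjusted p-value under 0.05, 5 had a negative Log2FC in the lines, and of the 8 such glycoproteins and proteoglycans 3 had. Eln had a Log2FC of −4.54 in primary MEFs and 1.88 (standard error 2.08) in the lines, Ogn −2.08 and 0.52 (standard error 1.24), and Emilin2 −1.64 and 0.08 (standard error 0.95). Col8a2, at −2.64 in primary MEFs, had a Log2FC of −1.16 (standard error 1.59) in the lines, and Col11a1, at −1.22, one of −1.42 (standard error 0.93). Igfbp2, of the IGF axis, had −1.61 and 0.83 (standard error 1.83). These standard errors were several times those in the primary MEFs, so neither a difference nor its absence was shown in the lines. The guidance gene Sema5b, at 5.04, 5.55 and 5.87 CPM in WT and 0.211, 0.306 and 0.292 CPM in Prkd3-/- primary MEFs (Log2FC −4.35), had a Log2FC of 1.95 (standard error 1.76) in the lines. A test of the genotype difference between the states, over all 13 libraries, called 0 of 21197 genes at an adjusted p-value under 0.05 in edgeR, with 841 at an unadjusted p-value under 0.05, while DESeq2 called 38. A difference between the states was therefore not shown for any of these genes by edgeR.

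**Figure D5:**
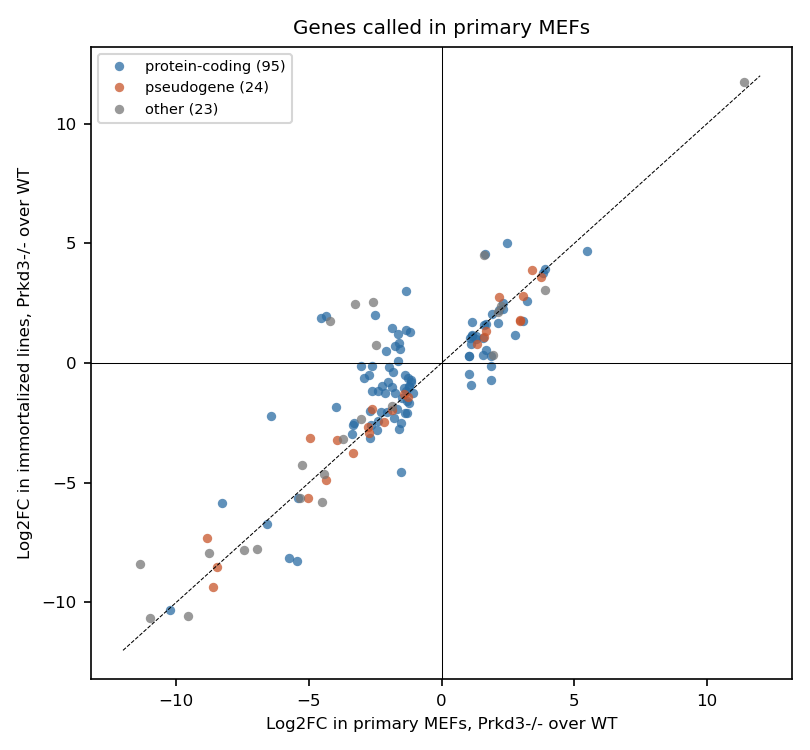
Each point is a gene called in primary MEFs that could also be tested in the immortalized lines (95 protein-coding, 24 pseudogenes and 23 others), with its Log2FC, Prkd3-/- over WT, in primary MEFs on the horizontal axis and in the lines on the vertical axis. All 24 pseudogenes, in orange, lie in the quadrants of equal sign, at a median distance of 0.486 and at most 1.82 log2 units from the dashed line of equality; for the 118 other genes the median distance is 0.806 and the largest 6.43.

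Genes around Prkd3 were examined because they lie in the same stretch of chromosome 17. Of 138 tested genes within 10 Mb 2 were called, both lower. In this window 4 were lower and 4 higher at an adjusted p-value under 0.05, and the median Log2FC was 0.0385. Over all genes tested, 0.534% were called lower, and 3.48% were lower and 2.56% higher at the 0.05 level. Whether the window differs from these shares was not tested. The 4 higher genes were Srsf7 (Log2FC 0.43), Slc8a1 (0.52), Prepl (0.49) and Socs5 (0.43). The processed pseudogene Gm6548 (78850792 to 78851956), 0.099 Mb from Prkd3, was at 51.7, 50.7 and 47.8 CPM in WT and 18.6, 25.4 and 18.1 CPM in Prkd3-/- (Log2FC −1.27, edgeR adjusted p = 0.00985), and was separated in all 13 libraries. Emilin2, an elastin-microfibril interface protein 7.70 Mb away, was at 126, 122 and 135 CPM against 45.0, 33.9 and 43.6 CPM (Log2FC −1.64, edgeR adjusted p = 0.00224). Eif2ak2, the interferon-induced kinase PKR, 0.097 Mb away, had a Log2FC of −0.62 (edgeR adjusted p = 0.0439), Qpct, which encodes glutaminyl cyclase, 0.103 Mb away on the other side, one of −1.20 (edgeR adjusted p = 0.0516), and the nearest gene, Ndufaf7, one of 0.01 (edgeR adjusted p = 0.979).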

How the data were processed

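RNA-seq counts of polyadenylated RNA from 3 WT and 3 Prkd3-/- primary MEF cultures were compared, with the 7 immortalized libraries as a side comparison. The authors deposited raw read counts per gene, in 1 table per genotype; the submitters' processing notes name FastQC 0.12.0, STAR 2.7.10a, SAMtools 1.18 and featureCounts of Subread 2.0.6 with GRCm38 (mm10). Per the file headers, pairs in the WT table were counted over exons without strand and given to every overlapping gene; the options behind the Prkd3-/- table are not given in the sources used here. Antisense and overlapping genes are uncertain for this reason. Both tables were joined on the Ensembl gene ID (55487 genes, of which 55141 had a symbol); all libraries listed 0 counts on the 37 mitochondrial genes.

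From the counts, edgeR 4.0.16 (R 4.3.3; filterByExpr, TMM, robust quasi-likelihood test, Benjamini-Hochberg adjustment over 20403 genes) tested genotype in the 6 primary libraries, with no batch term since genotype and table coincide. Calls needed a |Log2FC| no smaller than 1 and an adjusted p-value under 0.01. The same fit was run on the immortalized lines, and an interaction of genotype and state on all 13 libraries. CPM values use TMM-scaled library sizes and values are given for each library. Total counts of 35273408 to 100441756 put the level of 3 counts at 0.0287 to 0.0875 CPM; limits and intervals cover counting error only, since reads carried no molecular identifiers. The scripts were tested on simulated counts.

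Genes were named by rule: the 3 protein kinase D genes; the 12 called genes of smallest p-value in each direction with non-overlapping groups and at least 1 CPM in the higher group; up to 3 called members of each list, or its most abundant member where none was called; and called genes within 10 Mb of Prkd3. Other genes were added after their values were seen, as examples of a list or of a library that stood apart. The comparison, the lists and the tests were chosen with earlier results of these data known. Alternatives were DESeq2 1.42.0, limma voom (limma 3.58.1), other scalings, filters and thresholds, a covariate of mean log2(CPM + 1) of macrophage markers, and each library left out; 3 more (protein-coding genes alone, a variance weight per group, no X and Y genes) were chosen after seeing the data. Promoters were RefSeq windows searched with Python 3.11.15.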

Additional observations from a re-analysis of the deposited data

How the results depend on the processing

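No paired analysis was possible because the WT clones (3, 4 and 5) and the Prkd3-/- clones (13, 14 and 15) share no number. Against 47 genes higher and 109 lower, DESeq2 called 260 and 577, no filter on low counts 109 and 226, an adjusted p-value under 0.05 gave 197 and 410, and the macrophage covariate 338 and 821. Fewer were called by the fit of all 13 libraries (12 and 24), the test against a Log2FC of 1 (13 and 45) and protein-coding genes alone (20 and 53). A Log2FC of at least 2 left 21 genes higher, and at least 10 counts in every library left 56 lower. With a variance weight per group in limma voom 85 were higher and 117 lower, a share of 42.1% higher against 30.1%. Leaving out 1 library gave 0 to 322 genes higher and 2 to 1134 lower. The other scalings, limma voom, no robust estimation, and the removal of cell-type genes or of X and Y genes kept both counts within 1.5 times. The cause of these shifts was not tested. All 156 called genes were called by DESeq2 too, and 35 were by the fit of 13 libraries. With groups that did not overlap they could hardly turn direction, and none did under any alternative. Of the named genes 1 did: the Log2FC of Prkd2 was −0.05 and lay between −0.229 and 0.142 with 1 library left out, the positive value being without clone 14 (adjusted p = 0.249). The interaction of genotype and state called 0 genes in edgeR, also with lines 13 and 13a summed, and 38 in DESeq2, 5 of them called in primary MEFs. With 3 cultures a genotype, 1 of which stood apart, differences below those called were not resolved at this spread, and genotype, submission, sex and culture composition cannot be told apart.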

Other observations

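Groups of genes not described above also differed between the cultures. Imprinted genes summed to 12570, 12250 and 10740 CPM in WT and 6898, 7657 and 5121 CPM in Prkd3-/-, and Igf2 with H19, the neighbouring RNA expressed from the maternal allele, made up 55.9% to 59.6% of this sum in WT and 40.4%, 37.3% and 26.2% in clones 13, 14 and 15. H19 was at 3801, 3735 and 3185 CPM in WT and 1593, 1960 and 666 CPM in Prkd3-/- (Log2FC −1.35, edgeR adjusted p = 0.0986), without overlap, while the list's median Log2FC was −0.105 and none of 29 tested members was called. Dlk1, a paternally expressed Notch ligand homologue, was lower at an adjusted p-value under 0.05 (Log2FC −1.06, edgeR adjusted p = 0.0185).

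Adipogenic genes were lower in 4 of 6 tested members without overlap of the groups (median −0.808) and none was called. Over all genes tested 17.7% lay lower in this way. At an adjusted p-value under 0.05, 3.48% of all genes tested were lower and 2.56% higher. Lpl, lipoprotein lipase, was at 154, 151 and 206 CPM in WT and 24.4, 68.2 and 26.7 CPM in Prkd3-/- (Log2FC −2.10, edgeR adjusted p = 0.0477). Of 27 tested cytokine and chemokine genes none was called, 1 was lower at an adjusted p-value under 0.05, Ccl5 (Log2FC −1.26), and 2 were higher: Ccl7, a monocyte chemokine (Log2FC 0.84, edgeR adjusted p = 0.00890), and Ptgs2, the inducible cyclooxygenase, at 126, 130 and 148 CPM in WT and 290, 529 and 639 CPM in Prkd3-/- (Log2FC 1.85, edgeR adjusted p = 0.0235). Of 16 tested targets of the oxidative-stress factor Nrf2 none was called, 3 were higher at that level, among them Nqo1, a quinone reductase (Log2FC 1.10, edgeR adjusted p = 0.0282), and 1 was lower, the glutathione transferase Gsta4 (Log2FC −0.89, edgeR adjusted p = 0.0238).

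Genes with exons wholly shared with other genes had a median Log2FC of 0.081 (665 genes), against 0.0091 for the 12141 genes that share none. The 2042 shortest genes, up to 567 bases of exon, had a median of 0.13 and the 2041 longest, from 8815 bases, one of −0.048.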
